A study of Mus musculus with 3 samples.

Results

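The epidermal growth factor (EGF) receptor family and its ligands were examined in single-cell RNA sequencing of mouse dorsal skin. The 9 genes were chosen by symbol, from 19927 gene symbols in the deposited matrices. They are the receptors *Egfr*, *Erbb2* and *Erbb3* and the ligands *Btc*, *Areg*, *Hbegf*, *Ereg*, *Tgfa* and *Epgn*. Control 1 had rows for 8 of them, without *Epgn*, and the other libraries for all 9.

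The study compared mice that lack the vitamin D receptor gene *Vdr* in epithelial cells with control mice, during the first regression (catagen) of the hair follicle. Control mice were *Vdr* flox/flox, and *Vdr* cKO mice were *Vdr* flox/flox with Krt14cre, so both carried the floxed allele, and Cre was driven by the *Keratin-14* promoter, which is active in basal and outer root sheath keratinocytes. All mice were at postnatal day 18, and the study's methods describe them as males whose skin was pooled, 3 animals to a library, so that animals within a library cannot be told apart. Cells were freed with trypsin and captured in droplets on the Nadia instrument, which gave 2 control libraries and 1 *Vdr* cKO library.

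EGF family ligands are made as membrane proteins and are released from the cell surface by proteases such as Adam17. Released ligands bind receptor tyrosine kinases, which pair with each other on binding and signal through Ras and ERK kinases to immediate early genes. Erbb2 binds no known ligand and acts as a partner, and Erbb3 has little kinase activity of its own. In skin, the family is known for keratinocyte growth, wound closure and the timing of the hair cycle.

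Barcodes were taken as cells when they had 200 or more detected genes and mitochondrial counts of 20% or less. The controls gave 1480 and 1658 cells and the library labelled *Vdr* cKO, or cKO-labelled library, 2622. They held 18802408, 28690129 and 30954897 counts, with a median of 4190, 4492.5 and 4055 per cell. *Vdr* had 40.7, 35.9 and 80.8 CPM (counts scaled to the same total for each library), so it was not lower in the library with the cKO label. The study describes Cre as removing exon 3 alone, so counts over the whole gene do not measure the deleted part. The RNA *Xist*, which is made from an inactive X chromosome, had no count in either control and 142 CPM in that library, while 4 Y-linked genes had summed levels of 234, 211 and 77.6 CPM. The cKO-labelled library thus held both kinds of RNA, although the mice are described as males. That library differed from both controls in its marker genes too. The summed level of 7 basal keratinocyte markers was 4878, 3422 and 13270 CPM, that of 8 hair follicle markers 1611, 1643 and 4032 CPM, and that of 15 genes known to respond to tissue dissociation 2401, 2302 and 5230 CPM. Over 2-fold above both controls were 6 of the 7, 7 of the 8 and 8 of the 15, against 8.83% of all genes at 10 CPM or more. The sum of 6 spinous markers was lower in that library, at 69422, 79681 and 52505 CPM. So was that of 8 granular markers, at 21727, 19798 and 16731 CPM. Over 2-fold below both controls were 0 of these 6 and 1 of these 8, against 1.79% of all genes. The part these differences have in the values below was not tested. The study's methods name epidermal and hair follicle cells as those isolated. Fibroblast and endothelial markers, each list summed, were at 8.72 CPM or less in every library. Of the kept cells, 27, 28 and 20 had a barcode that also occurred in another library, and they were retained.

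The genes for *Epgn*, *Ereg*, *Areg* and *Btc* lie in this order within 376 kb of chromosome 5, at chr5:91027464-91402994 of GRCm38, with *Btc* on the minus strand and the others on the plus strand. *Egfr* is at chr11:16752203-16918158, on the plus strand. RefSeq promoters of GRCm38.p6 were matched for 6 of the 9 genes, all but *Erbb3*, *Hbegf* and *Ereg*. The 250 bases before the start are shown for *Btc*, *Areg* and *Egfr*. *Btc* was the ligand with the largest log2 fold between the classes of cells described below. *Areg* was the ligand that was over 2-fold apart between libraries, and *Egfr* is the receptor to which all 6 ligands are known to bind. Capitals mark matches on either strand. A TATA box was searched as TATAAA. Another motif was the CCAAT box, and another the GC box, written GGGCGG. The last was the AP-1 site, written TGANTCA.
Btc, chr5:91402995-91403244, minus strand: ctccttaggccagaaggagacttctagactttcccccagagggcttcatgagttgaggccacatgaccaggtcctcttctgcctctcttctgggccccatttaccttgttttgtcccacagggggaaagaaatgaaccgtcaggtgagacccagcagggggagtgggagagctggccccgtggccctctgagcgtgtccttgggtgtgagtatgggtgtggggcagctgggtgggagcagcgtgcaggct
Areg, chr5:91139349-91139598, plus strand: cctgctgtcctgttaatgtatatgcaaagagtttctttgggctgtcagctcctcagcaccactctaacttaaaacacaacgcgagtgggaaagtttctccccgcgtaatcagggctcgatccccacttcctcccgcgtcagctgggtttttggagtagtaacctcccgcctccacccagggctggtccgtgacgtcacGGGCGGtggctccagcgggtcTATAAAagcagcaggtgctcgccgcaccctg
Egfr, chr11:16751953-16752202, plus strand: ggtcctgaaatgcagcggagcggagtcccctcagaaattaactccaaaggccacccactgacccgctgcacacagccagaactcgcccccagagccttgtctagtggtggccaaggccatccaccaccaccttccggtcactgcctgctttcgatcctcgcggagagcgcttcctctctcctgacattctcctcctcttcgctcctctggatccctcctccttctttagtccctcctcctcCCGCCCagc
The *Btc* window held none of these motifs and the *Areg* window held a TATA box 31 bases and a GC box 52 bases before the start. The *Egfr* window held a GC box on the other strand, 9 bases before the start. Of 27025 promoters of the same length, 13% held the TATA box, 32.9% the GC box, 34.5% the CCAAT box and 6.87% the AP-1 site. The GC content was 59.6% for *Btc*, 57.2% for *Areg* and 60.8% for *Egfr*, and the median of all promoters was 52%.

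The first comparison set the cKO-labelled library against each control, from counts summed over all kept cells. A log2 fold compares this library with the control mean, each raised by 1 CPM. With 1 library of that label there was no test, and the difference between the controls is the only measure of spread. A gene was counted when it had at least 10 CPM in a library and was over 2-fold above or below both controls. Of the 9 genes, 8 reached this level, 1 was higher and 0 were lower. Over all 8806 genes at this level, 8.83% were higher and 1.79% lower, so the count of 1 was close to that background. The median log2 fold was 0.29 for the 8 genes and 0.14 for all 8806.

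All 3 receptors lay within 2-fold of both controls in the cKO-labelled library. *Egfr*, the receptor that all 6 ligands are known to bind, had 62.8 and 37.1 CPM in control 1 and control 2, and 63.1 CPM in the cKO-labelled library. Its log2 fold of 0.33 was smaller than the log2 ratio of 0.74 between the controls. *Erbb2*, the partner receptor, had 76.6, 75.4 and 73.0 CPM, a log2 fold of -0.06. *Erbb3*, a receptor for neuregulins, had 58.1, 62.4 and 52.9 CPM, a log2 fold of -0.18 where the controls differed by -0.10. The receptor that varied most between the controls was thus *Egfr*.

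Among the ligands, *Areg* was the single gene over 2-fold from both controls. *Areg* encodes amphiregulin, a ligand known for autocrine growth of keratinocytes. It had 9.63 CPM (95% exact Poisson interval 8.28 to 11.1) and 8.02 CPM (7.01 to 9.12) in the controls, and 25.4 CPM (23.7 to 27.3) in the cKO-labelled library. The log2 fold was 1.43, and the controls differed by 0.24 on the same scale. The intervals, here and below, account for counting error alone, and they are too narrow where PCR copies are among the counts. In control 1, 21 cells held all *Areg* counts, and 1 of them held 42.0%, whereas 124 cells carried them in the cKO-labelled library, with 5.46% in the highest. When each gene was counted once per cell, the log2 fold was 0.98 and *Areg* was no longer over 2-fold apart. The call was also lost with 10 CPM added (0.91) and with the mean of the CPM of each cell (1.28), where *Ereg* passed in its place.

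*Ereg*, which encodes epiregulin, went the other way. It had 90.4 CPM (86.2 to 94.8), 84.1 CPM (80.8 to 87.5) and 42.7 CPM (40.5 to 45.1), so the cKO-labelled library was at 0.473 and 0.508 times the level of the controls and missed the 2-fold limit by the second ratio. The log2 fold was -1.01, and the controls differed by 0.10. When each gene was counted once per cell, it was -0.35. Scaling by edgeR's TMM factors or DESeq2's size factors in place of library totals put *Ereg* below the limit, at -1.19 and -1.22. Those scalings moved the median log2 fold of all genes by -0.18 and -0.21, and the 778 higher and 158 lower genes became 563 and 249 with TMM factors and 537 and 269 with size factors.

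*Btc*, which encodes betacellulin, a ligand of both Egfr and the receptor Erbb4, had 301, 296 and 381 CPM, a log2 fold of 0.35. *Hbegf*, the heparin-binding ligand known from wound edges, had 19.9, 20.3 and 24.2 CPM, a log2 fold of 0.26. The cKO-labelled library was the highest for both, by less than 2-fold. *Tgfa*, a ligand whose loss is known to give wavy hair, had 8.94, 19.0 and 26.8 CPM, and its log2 fold of 0.89 was smaller than the control difference of -1.01 in size. *Epgn*, which encodes epigen, had 32 counts in 1 cell of control 2 and 6 counts in 3 cells of the cKO-labelled library, too few for a comparison.

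**Figure D1:**
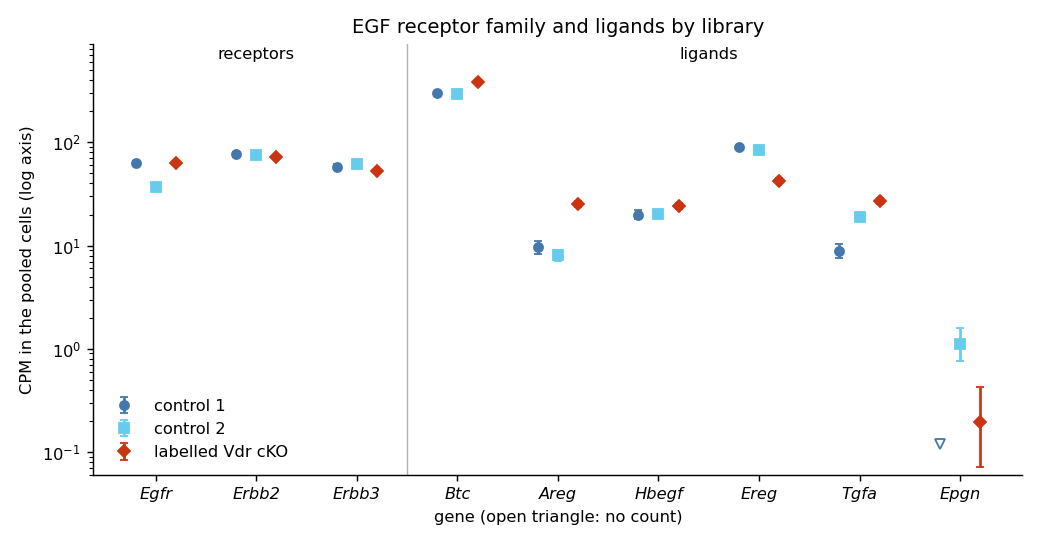
CPM of each gene in the pooled cells of each library, on a log axis, with 95% exact Poisson intervals of counting error. *Areg* was higher in the cKO-labelled library (25.4 against 9.63 and 8.02 CPM) and *Ereg* lower (42.7 against 90.4 and 84.1 CPM), and each receptor of the cKO-labelled library lay within 2-fold of both controls.

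Few cells held a count of any 1 gene. With cells thinned at random to 1000 counts each, and 1466, 1597 and 2562 cells deep enough for it, *Btc* was found in 5.25% of control 1 (95% Clopper-Pearson interval 4.17 to 6.52), 5.39% of control 2 (4.33 to 6.61) and 9.41% of the cKO-labelled library (8.30 to 10.6). Without thinning the shares were 8.92%, 9.89% and 17.4%. *Egfr* was found in 2.52%, 1.82% and 3.51% of the thinned cells, *Erbb2* in 2.86%, 3.51% and 4.68%, and *Erbb3* in 2.11%, 2.44% and 3.20%. *Areg* was in 0.682%, 0.564% and 0.976% and *Ereg* in 1.84%, 2.69% and 1.87%, and the intervals of the 3 libraries overlapped for each of these 2 ligands. The thinned *Areg* shares rest on 10, 9 and 25 cells. Such intervals, here and below, take cells as the unit, and whether they overlap is no test between libraries. Without thinning, *Areg* was in 1.42% (0.880 to 2.16), 1.75% (1.17 to 2.502) and 4.73% (3.95 to 5.61) of cells, and the interval of the cKO-labelled library lay above those of the controls. That library had the lowest median of counts per cell but the highest median of detected genes, at 688.5 against 377 and 502 in the controls. Its median of genes per 1000 counts was 165, against 91.9 and 118. The part of this in the shares, thinned or not, was not tested.

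Free RNA in droplets also gives counts, so the shares were set beside those in cells that had at least 3 immune markers and at least 5000 CPM of the immune list, which numbered 4, 7 and 29. In the cKO-labelled library, where these cells had a median of 6036 counts and all cells a median of 4055, the unthinned share was 10.3% of the immune-marker cells and 10.3% of all cells for *Egfr*, 17.2% and 13.5% for *Erbb2*, and 20.7% and 11.1% for *Erbb3*. The immune-marker shares rest on 3, 5 and 6 cells, with intervals of 2.19 to 27.4, 5.85 to 35.8 and 7.99 to 39.7. In the controls, none of the 4 immune-marker cells had a receptor count, and 0, 1 and 1 of the 7 had one of *Egfr*, *Erbb2* and *Erbb3*. To 3 digits, no receptor share of the cKO-labelled library was above that of its immune-marker cells. These were few and deeper, so the comparison cannot decide whether a receptor count comes from the cell or from free RNA, which was not tested. *Btc* was found in 13.8% of the 29 immune-marker cells (interval 3.89 to 31.7) and in 29.6% of the Lor-high cells, described next, which had a median of 3701.5 counts. In the controls it was found in 0 of 4 and 0 of 7 immune-marker cells (upper limits 60.2% and 41.0%), which had a median of 5425.5 and 16060 counts. The interval of the 29 cells also holds the 17.4% of all cells and the 29.6% of Lor-high cells in that library. For *Btc* too, the immune-marker cells were too few to decide where the counts come from, which was not tested.

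The second comparison asked which cells carried ligands and which carried receptors. *Lor* marks the granular layer, *Krt10* the suprabasal layers and *Krt14* the basal layer and outer root sheath. Cells of each library were ranked by their own *Lor* CPM and cut into 3 parts of near equal size, called Lor-high, Lor-middle and Lor-low. The Lor-low cells were divided into Krt14-led cells, in which the rank of *Krt14* exceeded that of *Krt10*, and Krt10-led cells. Cells with no *Krt14* count, 884, 1001 and 614 over all classes, shared 1 rank in their library. Such a cell was Krt14-led when its *Krt10* rank was lower still, so this class is not made of *Krt14*-positive cells alone. Krt14-led cells had 3379, 2177 and 4376 CPM of *Krt14* and 10126, 14901 and 7694 CPM of *Krt10*. All kept cells entered the classes, also those with immune markers. The immune list summed to 453, 1150 and 502 CPM in Krt14-led cells, the highest of the classes in each library. It was 39.0, 30.6 and 241 CPM in Krt10-led and 240, 206 and 436 CPM in Lor-high cells. The Lor-high class held 494, 553 and 874 cells, the Lor-middle class 493, 553 and 874, the Krt10-led class 280, 320 and 377, and the Krt14-led class 213, 232 and 497. Counts were summed for each class and library, and the 12 sums were fitted in edgeR with a term for the library, so that libraries and not cells were the replicates. Depth moved with the classes, from a median of 3299 to 3761 counts in Lor-high cells to 5307 to 8639 in Krt14-led and 7319 to 18491.5 in Krt10-led cells.

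Of the 8 genes that could be tested between Lor-high and Krt14-led cells, *Btc* and *Ereg* were higher in Lor-high cells and 0 were lower. Over all 13075 genes tested, 5.15% were higher and 1.42% lower. *Btc* had 1075, 1088 and 944 CPM in the Lor-high cells of control 1, control 2 and the cKO-labelled library, and 34.4, 3.20 and 26.9 CPM in the Krt14-led cells. The classes did not overlap, and the log2 fold was 6.40 ± 0.54 (SE, 3 libraries), with an adjusted p of 1.82e-07 by edgeR's quasi-likelihood test with Benjamini-Hochberg adjustment. *Lor* itself, which set the classes, had a log2 fold of 6.02.

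*Ereg* had 313, 236 and 72.1 CPM in Lor-high cells and 19.2, 3.94 and 9.02 CPM in Krt14-led cells, again without overlap. Its log2 fold was 4.61 ± 0.70 (SE) and its adjusted p 0.000222 in the edgeR test. With every cell thinned to 1000 counts before ranking, the log2 fold was 1.86 and the adjusted p from edgeR 0.272, so the call for *Ereg* was lost, whereas that for *Btc* was kept in each of the 13 alternatives. The size for *Btc* was not kept, since its log2 fold was 3.61 after thinning and 2.10 with each gene counted once per cell, and it was 5.37 without control 2 and 7.05 without control 1. *Tgfa* had 31.4, 57.2 and 57.0 CPM in Lor-high cells and 2.48, 12.3 and 9.02 CPM in Krt14-led cells. It was higher in 3 of 3 libraries, with a log2 fold of 3.30 ± 1.00 (SE), and its adjusted p of 0.0560 in edgeR missed the threshold of 0.05. It passed with DESeq2 (adjusted p 0.00119), with no filter on low counts (edgeR, 0.0447) and with each gene counted once per cell (edgeR, 0.000160).

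The receptors and the other ligands were not called. *Egfr* had 86.0, 19.3 and 46.5 CPM in Lor-high and 81.6, 29.8 and 70.6 CPM in Krt14-led cells, a log2 fold of 0.09 ± 0.55 (SE) with an adjusted p of 0.961 in edgeR. *Erbb2* (log2 fold 0.57 ± 0.44) and *Erbb3* (0.26 ± 0.48) had adjusted p-values of 0.558 and 0.844 in the same edgeR fit. Receptor counts occurred in all 4 classes of every library. *Areg* had 6.96, 7.20 and 19.7 CPM in Lor-high and 5.32, 5.42 and 15.3 CPM in Krt14-led cells, and its log2 fold was 0.79 ± 0.85 (SE). *Hbegf* had 16.0, 3.87 and 18.2 against 7.81, 9.12 and 30.0 CPM, a log2 fold of 0.12 ± 0.79 (SE). The standard errors allow a difference of over 2-fold between the classes for each of these 5 genes, so a like level was not shown.

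**Figure D2:**
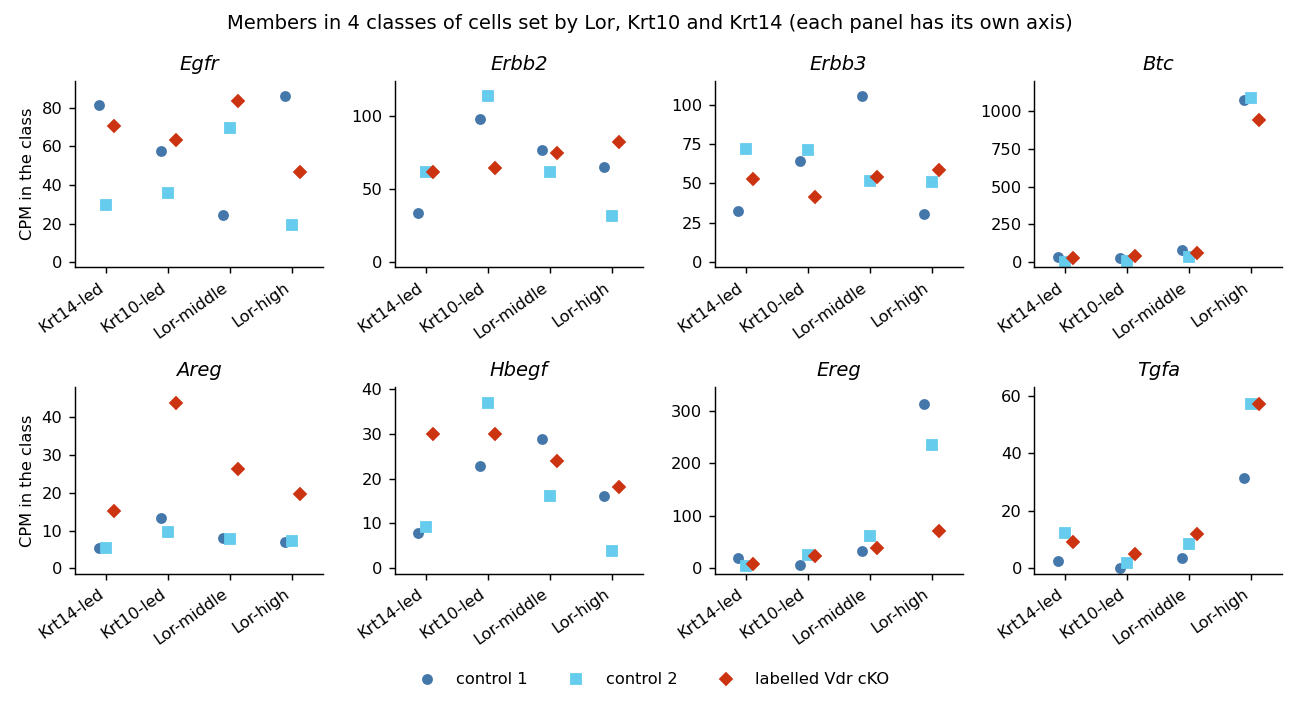
CPM of 8 genes in the 4 classes of cells, 1 point for each library, with an axis of its own in each panel. *Btc* (1075, 1088 and 944 CPM), *Ereg* and *Tgfa* were highest in Lor-high cells in every library, *Areg* was highest in Krt10-led cells in every library, and the receptors changed order between libraries.

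Between Krt10-led and Krt14-led cells 0 of the 8 genes were called in edgeR, where 2.6% of the 13075 genes were higher and 1.48% lower. The lowest p of the 8 in the same fit was that of *Erbb2*. This gene had 98.1, 114 and 64.5 CPM in Krt10-led and 34.1, 61.6 and 62.1 CPM in Krt14-led cells. It was higher in 3 of 3 libraries, though by little in the cKO-labelled library, with a log2 fold of 1.01 ± 0.44 (SE), and an adjusted p of 0.265 in edgeR. The Krt10-led cells were the deepest class, and the log2 fold of *Erbb2* was 0.017 after thinning and 0.072 without the deepest 5% of cells. DESeq2 called 0 as well, where 627 of all 16182 genes were higher and 825 lower. *Areg* (log2 fold 1.41 ± 0.86) and *Hbegf* (1.37 ± 0.80) were also higher in 3 of 3 libraries, and *Tgfa* (-2.02 ± 0.99) lower in 3 of 3, and their adjusted p-values in edgeR were 0.468, 0.449 and 0.348. The log2 fold of *Areg* was 0.48 after thinning and 0.28 without the deepest cells.

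**Figure D3:**
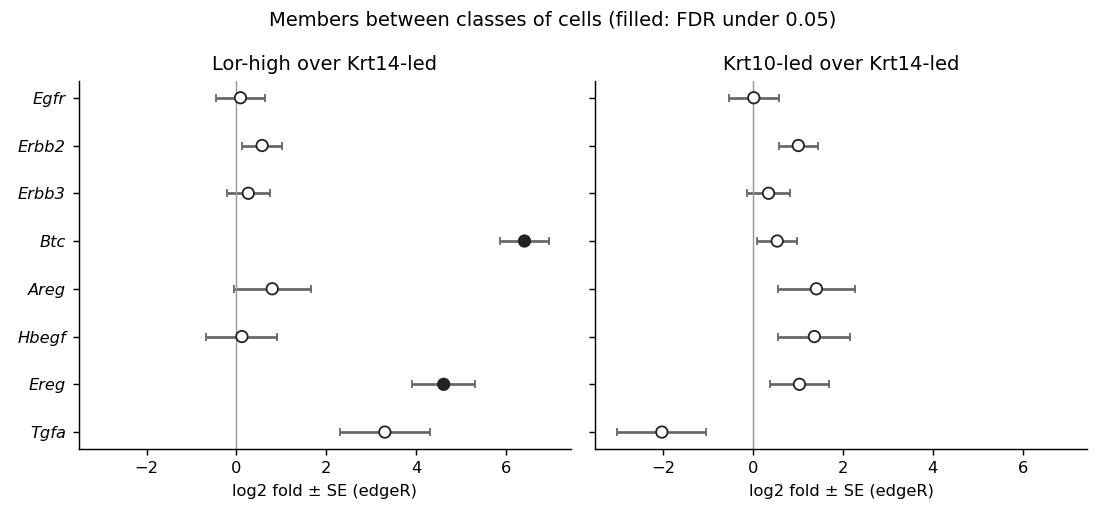
Log2 folds from the edgeR fit to 12 sums of class and library, for Lor-high over Krt14-led cells (left) and Krt10-led over Krt14-led cells (right). Bars are standard errors implied by the F statistic of the test. Filled points passed an adjusted p of 0.05, which were *Btc* at 6.40 and *Ereg* at 4.61 in the left panel and none in the right.

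Finer steps showed where in the *Lor* ranking the ligands lay, and this view was chosen after seeing the data. With the cells of each library cut into 10 parts by *Lor*, the highest part held 82.4% of all *Btc* counts in control 1, 85.6% in control 2 and 72.9% in the cKO-labelled library. For *Ereg* it held 80.8%, 63.4% and 34.6%, and for *Tgfa* 78.6%, 75.8% and 60.8%. The step to this part was steep. *Btc* had 333, 204 and 429 CPM in the part below it and 1684, 2016 and 1838 CPM in the highest. These shares rest on few cells. At least 50% of all *Btc* counts lay in 5, 6 and 15 cells, and 19.2%, 20.2% and 6.41% lay in a single cell. Of the cells with *Btc*, the highest part held 39 of 132, 53 of 164 and 127 of 457, a smaller share than of its counts. For *Egfr* the highest part held 12.4%, 1.97% and 9.32% of all counts. *Egfr* had 334, 21.3 and 43.5 CPM in the ninth part and 53.1, 5.83 and 38.9 CPM in the tenth, lower in every library, and the 334 CPM came from 12 cells. The tenth part was the lowest for *Egfr* in control 2 only. In control 1 the fourth part was lowest, at 11.1 CPM, and in the cKO-labelled library the sixth, at 37.7 CPM.

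**Figure D4:**
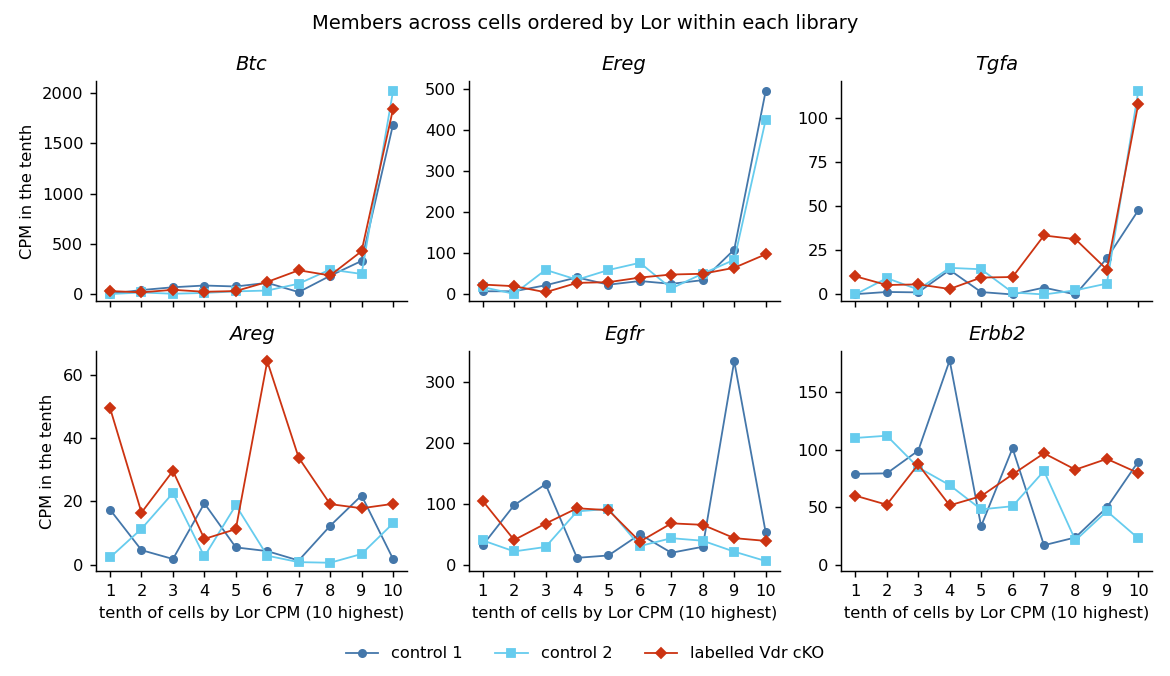
CPM of 6 genes across 10 parts of the cells ordered by *Lor* within each library, each panel with an axis of its own. *Btc* rose from 333, 204 and 429 CPM in the ninth part to 1684, 2016 and 1838 CPM in the tenth, *Ereg* reached 496 and 425 CPM there in the controls and 97.9 CPM in the cKO-labelled library, *Egfr* was lower in the tenth part than in the ninth in every library, and *Areg* and *Erbb2* had no step there that all 3 libraries shared.

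Even in the Lor-high class most cells had no *Btc* count. It was found in 70 of 494, 91 of 553 and 259 of 874 of these cells. In a comparison chosen after seeing the data, Lor-high cells with *Btc* had 61138, 63701 and 34164 CPM of *Lor*, and those without it had 33823, 30337 and 18479 CPM. *Ereg* was at 629, 569 and 85.9 CPM in the cells with *Btc* and at 113, 46.0 and 52.2 CPM in those without. Both genes were higher in the cells with *Btc* in every library, but these cells were also deeper, with a median of 7397, 15936 and 6233 counts against 3518.5, 2766.5 and 3149, and the part of depth in this was not tested. After thinning, *Btc* and *Ereg* were found together in 5, 9 and 8 Lor-high cells, where the product of their shares gives 1.62, 2.46 and 4.69 cells. For *Btc* and *Egfr* these were 0, 1 and 7 cells against 1.33, 1.07 and 4.69.

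Bins of *Krt10* and *Krt14* alone gave a less even picture. In each library the cells with *Krt10* were divided at their median, and the same was done for *Krt14*. *Btc* had 676, 846 and 350 CPM in the cells of low *Krt10* and 89.2, 56.2 and 391 CPM in those of high *Krt10*, so the controls shared a direction that the cKO-labelled library did not. *Ereg* did the same, with 214, 183 and 31.7 CPM at low *Krt10* and 20.7, 41.0 and 47.4 CPM at high *Krt10*. For *Egfr* these were 88.7, 12.2 and 79.9 CPM and 48.4, 48.2 and 55.6 CPM, and the controls differed in direction. In cells with no *Krt14* count *Btc* was at 391, 282 and 737 CPM, and in those of high *Krt14* at 96.0, 545 and 268 CPM, so a high *Krt14* level did not go with a low *Btc* level in every library. *Lor* was detected in 94.0% or more of the cells of each *Krt14* bin, and thus marks the classes by its level rather than by its presence.

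The difference in *Ereg* CPM between libraries lay in the Lor-high cells. There the cKO-labelled library had 72.1 CPM and the controls 313 and 236 CPM, a log2 fold of -1.91 where the controls differed by 0.41. In Lor-middle cells it had 39.4 CPM and lay between the controls, at 32.6 and 62.4 CPM, and in Krt10-led and Krt14-led cells it also lay between them. The share of thinned Lor-high cells with *Ereg* was 3.51%, 4.47% and 2.84%, with overlapping intervals. Without thinning it was 7.29%, 12.5% and 11.2%, and the cKO-labelled library lay between the controls. Over all classes, a cell with *Ereg* held 27.9, 19.8 and 7.88 of its counts on average, and a single cell held 21.8%, 6.42% and 5.67% of them. The average per cell with a count was also lowest in the cKO-labelled library for every other gene of the family but *Epgn*. For *Btc* it was 42.9, 51.7 and 25.8, so a low value there was not particular to *Ereg*. *Lor* moved with the difference in *Ereg* CPM, at 44415, 42439 and 27780 CPM in the Lor-high class, and the part of *Lor* was not tested. *Btc*, in contrast, had a log2 fold of -0.20 in the same cells, and its share of thinned cells was 9.50% (7.04 to 12.5), 10.7% (8.15 to 13.7) and 19.5% (16.9 to 22.4).

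*Areg* had a higher CPM in the cKO-labelled library in all 4 classes. It had 13.3 and 9.58 CPM in the Krt10-led cells of the controls and 43.8 CPM in that library, a log2 fold of 1.85. The log2 fold was 1.62 in Lor-middle, 1.36 in Lor-high and 1.35 in Krt14-led cells. The controls differed by 0.44 or less in each class, but their values rest on 3 to 9 cells with a count in a class. Without thinning, the share of cells with *Areg* was highest in the cKO-labelled library in every class. After thinning it was 1.42%, 0.437% and 0.811% of Krt14-led cells, with that library between the controls. It was highest in that library in each other class. *Hbegf* was higher in that library in Krt14-led cells, with 30.0 CPM against 7.81 and 9.12 CPM, a log2 fold of 1.71, and lay between the controls in Lor-middle and Krt10-led cells. The Krt14-led values rest on 12 cells with a count, against 2 and 6 in the controls. As a share of that class this was 2.41% against 0.939% and 2.59%, which is between the controls. Of the receptors, *Erbb2* and *Erbb3* had a lower CPM in the Krt10-led cells of that library than in those of both controls. Their log2 folds were -0.71 each, and *Egfr* was not lower. After thinning, *Erbb2* was found in 3.57%, 5.03% and 4.24% of Krt10-led cells and *Erbb3* in 2.14%, 3.14% and 2.92%, each between the controls. Without thinning, *Erbb2* was between them as well (11.4%, 23.8% and 17.2%) and *Erbb3* was not (11.4%, 17.5% and 11.1%). In Lor-high cells the CPM of both receptors was higher in that library than in the controls. *Erbb2* was at 82.2 CPM against 65.4 and 31.9 CPM (log2 fold 0.74) and *Erbb3* at 58.7 CPM against 30.6 and 50.7 CPM (0.52). Their thinned shares of Lor-high cells were also highest in that library. None of these differences within classes was tested, with 1 library of that label.

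Ligand and receptor counts fell on the same cells about as often as the separate shares would give, at 1000 counts a cell. Over the thinned cells, 8.39%, 9.64% and 13.7% held a count of at least 1 of the 6 ligands and 7.37%, 7.51% and 11.0% a count of at least 1 of the 3 receptors. Both were found in 5 cells of control 1, or 0.341% (interval 0.111 to 0.794), in 13 of control 2, or 0.814% (0.434 to 1.39), and in 40 of the cKO-labelled library, or 1.56% (1.12 to 2.12). The product of the shares was 0.618%, 0.725% and 1.51%, inside the interval in each library. Ligand cells made up 14.0%, 15.7% and 24.3% of Lor-high and 4.25%, 2.18% and 6.09% of Krt14-led cells. Receptor cells made up 7.44%, 6.41% and 12.3% of Lor-high and 7.55%, 8.73% and 9.13% of Krt14-led cells. The ligand share was thus higher in Lor-high cells in every library. *Btc*, with or without another ligand, was found in 46 of the 68, 55 of the 81 and 165 of the 205 ligand cells of that class. The intervals of the receptor share overlapped between the classes in every library, at 5.26 to 10.1 and 4.38 to 11.97 in control 1, 4.45 to 8.88 and 5.42 to 13.2 in control 2, and 10.2 to 14.7 and 6.74 to 12.02 in the cKO-labelled library. With cells as the unit, this overlap is no test of a difference between the classes.

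The genes around the receptors were taken from a list of 62, ordered by role. Of these, 49 reached 10 CPM, 9 were over 2-fold above both controls in the cKO-labelled library and 0 were below, where 8.83% of all 8806 genes were higher and 1.79% lower. The median log2 fold was 0.38 for the 49 and 0.14 for all genes. The remaining receptor and ligands of the family (*Erbb4*, *Egf* and the neuregulins) did not reach this level. Among 5 genes of ligand release the higher one was *Timp3*, an inhibitor of the shedding proteases, with 13.0, 28.2 and 112 CPM. *Adam10*, such a protease, had 39.0, 80.0 and 67.2 CPM, within the range of the controls. Of 20 adaptors and kinases, *Map2k1*, which encodes the ERK kinase MEK1, was higher, with 3.99, 14.2 and 33.9 CPM, while *Stat3* had 113, 95.2 and 152 CPM and *Pik3ca* 32.2, 61.6 and 65.2 CPM. *Timp3* and *Map2k1* also differed by over 2-fold between the controls.

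Feedback genes and targets held the other 7. *Dusp1*, a phosphatase that switches off MAP kinases, had 152, 139 and 345 CPM. *Spred2*, an inhibitor of the Ras pathway, had 3.83, 1.43 and 18.9 CPM, and *Cblb*, a ubiquitin ligase of receptor turnover, 4.15, 12.5 and 25.4 CPM. The feedback inhibitor *Spry1* had 48.6, 59.9 and 27.4 CPM, a log2 fold of -0.96. With TMM factors *Fos* and *Cblb* were no longer over 2-fold apart, and with DESeq2's size factors *Fos*, *Cblb* and *Dusp1* were not, while *Spry1* was over 2-fold lower. Of the immediate early targets, *Jun* had 244, 253 and 1121 CPM, *Junb* 175, 178 and 432 CPM, *Fos* 424, 358 and 948 CPM, and *Ier3* 4.52, 4.43 and 14.4 CPM. *Dusp1*, *Jun*, *Junb*, *Fos* and *Ier3* are also in the list of dissociation genes given above, which was higher as a sum in that library (5230 against 2401 and 2302 CPM), and its part was not tested. With each gene counted once per cell, 5 of the 62 were over 2-fold above both controls, of which *Timp3*, *Spred2* and *Jun* were among the 9.

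**Figure D5:**
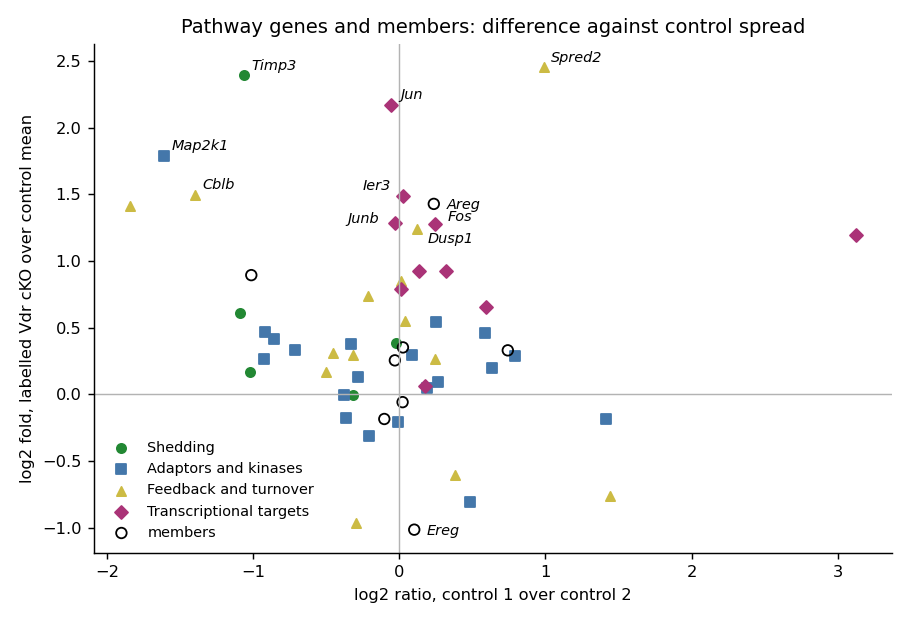
Log2 fold of the cKO-labelled library over the control mean against the log2 ratio between the controls, for 49 pathway genes by role and the 8 EGF family genes at 10 CPM. *Jun* (log2 fold 2.17), *Junb*, *Fos*, *Dusp1*, *Ier3* and *Areg* (1.43) lie high with a small difference between the controls, whereas *Timp3*, *Map2k1*, *Cblb* and *Spred2* lie high with a large one.

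Across the classes, 56 of the 62 could be tested. In Lor-high over Krt14-led cells 10 were higher and 1 lower in edgeR, where 5.15% of the 13075 genes were higher and 1.42% lower. The median log2 fold was 0.24, and over all genes it was 0.01. The 10 were the targets *Jun* (log2 fold 1.49), *Junb* (1.94), *Fos* (0.78), *Egr1* (0.76) and *Ier2* (1.12), the feedback genes *Dusp1* (1.03) and *Errfi1* (1.51), and the signalling genes *Hras* (1.32), *Map2k2* (1.33) and *Mapk3* (1.58). *Errfi1* encodes an inhibitor that binds the Egfr kinase, and *Mapk3* encodes ERK1. The lower one was *Pik3r1* (-1.34), a regulatory subunit of PI3 kinase. Of these, *Jun*, *Junb*, *Fos*, *Egr1*, *Ier2* and *Dusp1* are themselves in the list of dissociation genes. The sum of that list was 3091, 3017 and 5288 CPM in Lor-high and 1646, 1731 and 5037 CPM in Krt14-led cells. The part of dissociation in the calls was not tested. In Krt10-led over Krt14-led cells 1 was higher, *Spry1* (2.67), and 1 lower, *Nrg4*, a ligand of Erbb4 with 5.53, 4.29 and 2.42 CPM over all cells, where 2.6% of all genes were higher and 1.48% lower.

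*Btc* was the single gene of the 9 with a count in at least 5% of the thinned cells of a library, and the genes most like it were sought. Over the 12 sums of class and library, centred within library, and among 3911 genes with at least 50 CPM, the highest Pearson correlations of log2(CPM + 1) with *Btc* were those of *Smap2* (0.986), *Il18* (0.975) and *Nrd1* (0.972). *Il18* encodes an epithelial cytokine and *Nrd1* the protease nardilysin. The sums share their libraries and the *Lor* ranking that formed them, and the values are a description.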

How the data were processed

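Single-cell counts were analysed for 2 control libraries and 1 library labelled *Vdr* cKO. The authors deposited raw counts per gene and barcode, without normalization. The labels name mm10 and the RNAdia 2.0 kit, and the study's methods name Seurat for alignment. The annotation and the rule for counting molecules are not given in the sources used here, so counts may include PCR copies. All genes and lists were chosen with earlier results of these data known.

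No doublets were removed, and an alternative left out the deepest 5% of cells. Counts were summed per library, or per library and class, and scaled to CPM. Genes named are the 9, the class markers, *Vdr*, *Xist*, every pathway gene over 2-fold from both controls, in each pathway group the 2 with the largest absolute log2 fold at 50 CPM or more, and 3 genes like *Btc*. The pathway genes called between classes, and *Fos*, were named as well.

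Class sums were tested with edgeR 4.0.16 (quasi-likelihood, TMM factors, filterByExpr, library as a term, adjusted p under 0.05, two-sided) in R 4.3.3, with DESeq2 1.42.0 as an alternative. Whether libraries come from separate preparations is given only by their labels, so p-values measure the spread between these libraries. On simulated data for the Lor-high over Krt14-led contrast (13021 genes), 12 of 41 genes changed 4-fold up and 12 of 50 changed 4-fold down were called, 1 of 54 and 0 of 55 changed 2-fold, and 8 of 12821 unchanged genes. A gene not called may therefore differ by 4-fold, and unchanged genes made up more of the calls than the 0.05 aimed at. Positions are from GENCODE M21. Python 3.11.15, numpy 2.4.6, scipy 1.17.1, pandas 2.3.3 and matplotlib 3.10.9 were used.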

Additional observations from a re-analysis of the deposited data

Results flagged for a closer look

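*Erbb3* differed in direction between the controls and the cKO-labelled library in 1 contrast. Its log2 fold of Lor-high over Krt14-led cells, from the CPM of each library, was -0.091 in control 1 and -0.50 in control 2, and 0.15 in the cKO-labelled library. By CPM, both controls thus went one way and that library the other, but control 1 lay nearer to that library than to control 2. The difference was not tested, since there is 1 library of that label. The edgeR fit over all libraries did not call *Erbb3* (log2 fold 0.26 ± 0.48, SE). That fit used TMM factors, and without them its log2 fold was -0.15, so its sign depended on the scaling. The values of each library above were also without TMM factors.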

How the results depend on the processing

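Between libraries, the number of genes of the 9 over 2-fold from both controls, 1 in the main setting, was 2 (*Areg* and *Ereg*) with all barcodes, TMM factors, DESeq2 size factors or a total without the 20 most abundant and the mitochondrial genes, and 0 with each gene counted once per cell or 10 CPM added. With the mean of the CPM of each cell it stayed at 1, but the gene was *Ereg* and not *Areg*. Leaving out each control gave 1 to 3, with *Tgfa* and *Ereg* added without control 2. Over all genes with all barcodes, 756 were higher and 146 lower of 8780, and with the reduced total 705 and 174 of 8793. With TMM factors it was 563 and 249 of 8767, and with DESeq2 size factors 537 and 269 of 8737. It was 919 and 176 of 10573 with each gene counted once per cell, and 264 and 44 of 8806 with 10 CPM added. The cell mean gave 890 and 243 of 9129, and a minimum of 50 CPM 159 and 47 of 3919. It was 1401 and 305 of 8503 without control 1, and 1473 and 522 of 8599 without control 2. The pathway count of 9 was 5 with each gene counted once per cell and 5 at a minimum of 50 CPM, 7 with TMM factors and 7 with DESeq2 size factors (including *Spry1*, lower), and 13 to 14 with 1 control left out. In the class tests, 1 of the 9 was higher in Lor-high cells after thinning (*Btc*), and in Krt10-led cells 1 with common cut-offs over the libraries (*Ereg*, adjusted p 0.0441 in edgeR) and 2 with each gene counted once per cell (*Erbb2*, 0.0400, and *Ereg*, 0.0243). Over all genes, library totals without TMM factors turned the 673 higher and 186 lower genes of Lor-high cells into 423 and 466, and the 340 and 193 of Krt10-led cells into 256 and 263. Without control 1, control 2 and the cKO-labelled library, the Lor-high fits gave 491 and 40, 333 and 37, and 490 and 176, and the Krt10-led fits 211 and 50, 162 and 63, and 243 and 261. After thinning, 222 genes were higher and 70 lower in Lor-high cells, of 8114 tested. In Krt10-led cells it was 354 and 258 of 12937 with common cut-offs. With each gene counted once per cell it was 611 and 692 of 8585 there. The cause of these changes was not tested.

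Genes not called changed sign in some settings. For Lor-high over Krt14-led cells, the log2 fold of *Egfr* was -0.010 with DESeq2, -0.30 without TMM factors, -0.0063 with common cut-offs, -0.030 with *Lor* cut into 2 parts, and -0.17 to 0.21 with 1 library left out. That of *Erbb3* was -0.15 without TMM factors and -0.0078 with each gene counted once per cell, that of *Hbegf* -0.28 without TMM factors and -0.47 to 0.44 with 1 library left out, and that of *Erbb2* -0.37 without the deepest 5% of cells. For Krt10-led over Krt14-led cells, *Egfr* was at -0.12 with DESeq2, -0.15 without TMM factors, -0.28 with common cut-offs, -0.026 without immune-marker cells, -0.016 without shared barcodes (a setting chosen after seeing the data), and -0.19 to 0.26 with 1 library left out. *Btc* was at -0.32 and *Ereg* at -0.47 after thinning, and *Btc* was at -0.018 and *Erbb3* at -0.18 with each gene counted once per cell.

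The share of cells with a ligand and a receptor followed depth. It was 0.406%, 0.302% and 0.458% at 500 counts, 1.10%, 1.72% and 3.09% at 2000 counts and 3.58%, 6.33% and 10.2% without thinning, where the product of the shares was 2.20%, 4.25% and 7.81%. With at least 500 genes per cell control 1 was at 0.950%. No paired analysis between the groups was possible, since there is 1 library of the cKO label and no label pairs it with a control. The class fits, with a term for the library, compared classes within libraries.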

Other observations

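Barcodes left out by the limits for cells numbered 1308, 802 and 160 and held 1141347, 551524 and 126039 counts. In the controls they carried *Btc* at 574 CPM (95% exact Poisson interval 531 to 620) and 138 CPM (109 to 172), against 23.8 CPM (4.91 to 69.6), from 3 counts, in the cKO-labelled library. *Ereg* was at 95.5 CPM (78.4 to 115), 187 CPM (152 to 226) and 47.6 CPM (17.5 to 104) in them, and *Areg* at 9.64 CPM (4.81 to 17.2), 65.3 CPM (45.7 to 90.4) and 15.9 CPM (1.92 to 57.3). *Epgn* had no count in these barcodes of any library, which allows up to 2.63, 5.44 and 23.8 CPM (3 counts).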
